A study of Mus musculus with 17 samples.

Results

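Saa3, Ctnnd2, Klrd1, Parvg, Cd1d1 and Adora3 are 6 genes whose level in kidney macrophages after remission of lupus nephritis stayed away from the level before disease. They were picked by name, for the difference between the remission and prenephritic arrays, from the 15780 genes that the deposited table names. Each has 1 probe set, identified by its Entrez gene number. The arrays were made from cells with high surface F4/80, sorted from kidneys of NZB/W mice, a hybrid strain that develops lupus spontaneously. Prenephritic samples (n = 6, titled young) came from mice 8 to 16 weeks old. Nephritic samples (n = 7) were taken 2 to 6 weeks after proteinuria began and before end-stage kidney failure. Remission samples (n = 4) were taken 3 to 4 weeks after complete remission, which had been induced with 1 dose of cyclophosphamide, 6 doses of CTLA4Ig and anti-CD154. The labels give no age for the nephritic and remission mice and no untreated mice in remission, so age, drug and remission cannot be told apart. Nothing in them names a separate animal for each array, and the p-values below therefore measure only the spread between these samples, which may be technical.

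The 6 genes belong to different systems. Saa3 encodes a serum amyloid A protein, an acute phase protein of the mouse that macrophages and fat cells secrete. Adora3 encodes the A3 adenosine receptor, a G protein-coupled receptor that senses extracellular adenosine. Klrd1 encodes CD94, which pairs with NKG2 chains to form receptors of natural killer (NK) cells and some T cells. Cd1d1 encodes the CD1d chain that displays lipids to NKT cells. Ctnnd2 encodes delta-catenin, a partner of cadherins known best from neurons, and Parvg encodes gamma-parvin, a blood cell adaptor of the integrin-linked kinase complex. In bulk samples, fewer cells of a type and less RNA per cell cannot be told apart.

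The values are log2 expression values after RMA, a procedure that brings all arrays to a common distribution. The arrays were alike in scale, with medians between 7.49 and 7.68. The macrophage marker genes Adgre1 (F4/80), Csf1r, Cd68, Mrc1 and C1qa had group means between 12.97 and 13.47, and Cx3cr1 between 10.52 and 10.58. The other listed macrophage markers moved, Fcgr1 from 11.68 to 12.31 and 11.76 and Mertk from 8.74 to 9.96 and 8.70 in prenephritic, nephritic and remission means, and both passed the limma test described below as higher in nephritis and lower in remission than in nephritis (adjusted p from 0.0012 to 0.031). The fall of Fcgr1 was not called in 6 of the 17 fits that left out an array. The mean of all 8 markers ran from 11.92 to 12.29 in prenephritic, from 12.16 to 12.46 in nephritic and from 11.97 to 12.31 in remission arrays. Kidney tubule genes were also detected, and the mean of the 16 listed tubule markers ran from 8.99 to 10.86 in prenephritic, from 7.68 to 10.65 in nephritic and from 9.96 to 11.46 in remission arrays. Their median difference was 0.92 for remission minus prenephritic arrays, where none of the 16 passed the limma test. For remission minus nephritic arrays it was 1.18. There Calb1 and Pvalb passed as higher (limma, adjusted p = 0.019 and 0.021), calls each lost in 2 of the 17 fits that left out an array.

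RefSeq's promoter table (GRCm38.p6) held 4 of the 6 genes, Saa3, Ctnnd2, Parvg and Adora3. The 250 bases upstream of the start are shown for Saa3, the gene that was higher, and for Ctnnd2 and Adora3, which were lower. They were searched on both strands for TTNNGCAA, a form of the C/EBP motif, and for GAGGAAGT, a form of the motif of the macrophage factor PU.1, and matches are in capitals. The Saa3 stretch lies at chr7:46715677-46715926 (minus strand), the Ctnnd2 stretch at chr15:30172284-30172533 (plus strand) and the Adora3 stretch at chr3:105904171-105904420 (plus strand).
Saa3: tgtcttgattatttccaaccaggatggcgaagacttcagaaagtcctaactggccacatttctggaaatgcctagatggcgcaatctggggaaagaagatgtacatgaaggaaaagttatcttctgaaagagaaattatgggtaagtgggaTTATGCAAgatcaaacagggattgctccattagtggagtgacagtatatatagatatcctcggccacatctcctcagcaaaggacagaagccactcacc
Ctnnd2: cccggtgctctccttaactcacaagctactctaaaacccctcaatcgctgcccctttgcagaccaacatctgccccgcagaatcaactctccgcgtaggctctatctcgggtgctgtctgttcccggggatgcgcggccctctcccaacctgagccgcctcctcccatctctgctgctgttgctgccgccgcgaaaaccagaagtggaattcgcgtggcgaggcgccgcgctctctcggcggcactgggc
Adora3: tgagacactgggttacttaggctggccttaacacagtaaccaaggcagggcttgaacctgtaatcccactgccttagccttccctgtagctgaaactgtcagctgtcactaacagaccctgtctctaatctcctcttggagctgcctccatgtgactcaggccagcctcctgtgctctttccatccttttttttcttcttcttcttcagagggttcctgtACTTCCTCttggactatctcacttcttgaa
Saa3 held 1 match to TTNNGCAA, 92 to 99 bases upstream of the start. The window of its relative Saa1 held 1 as well, 175 to 182 bases upstream on the opposite strand. Saa1 had means of 3.10, 3.13 and 3.11 in prenephritic, nephritic and remission arrays. Among 32851 RefSeq promoters, 9.56% held that motif in the same window. Adora3 held 1 match to GAGGAAGT on the opposite strand, 23 to 30 bases upstream, against 2.44% of all promoters. The motifs were chosen after these sequences had been read, so the matches are a description and the promoter shares do not measure how unusual they are. The windows of Ctnnd2 and of both Parvg starts held neither. In the RefSeq annotation Adora3 lies inside the span of the longer gene Tmigd3, and the positions of the array's probes are not used here, so part of the Adora3 signal could come from Tmigd3 transcripts.

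The remission minus prenephritic contrast chose the genes, so their values are a description without a test. Differences are of group means, with the standard error from a limma fit to all 17 arrays. In that fit 0.00634% of genes (1 of 15780) differed between remission and prenephritic arrays at a Benjamini-Hochberg adjusted p below 0.05, and that gene was Parvg. None (0%) was higher at that threshold. At an unadjusted p below 0.05, 1007 genes were higher and 1939 lower in remission, among them all 6. For the other 5 genes the description as still altered therefore rests on the size of the difference, and not on a call. The Parvg call was lost with the tubule marker mean as a covariate (difference −1.01 ± 0.16). So it was with the conventional dendritic cell marker mean (−1.02 ± 0.19), a covariate chosen after seeing the data. In that fit Saa3 alone of the 6 was called, and calls over all genes were not counted. The Parvg call was also lost when only the remission and prenephritic arrays were fitted, and without nephritic replicate 6 and prenephritic replicate 5. Of the 17 fits that left out 1 array, 12 did not call Parvg and 5 did (those without prenephritic replicate 4 or 6, nephritic replicate 3 or 5, or remission replicate 4). Without prenephritic replicate 6, 5 of the 6 genes were called, all but Klrd1. Among all 15780 genes that fit called 28 as higher and 171 as lower, against 0 and 1 with all arrays.

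Saa3 was the only one of the 6 that was higher in disease. Its prenephritic levels had a lowest value of 6.03, a median of 7.34 and a highest value of 7.87. Its nephritic levels had a lowest value of 8.48, a median of 8.96 and a highest of 9.80. The remission arrays read 9.18, 8.75, 8.33 and 8.78. Every nephritic and every remission array lay above every prenephritic array, and all remission arrays but replicate 3 fell inside the nephritic range. Non-overlap in this direction was found for 3.07% of all genes between nephritic and prenephritic arrays and for 0.393% between remission and prenephritic arrays. The nephritic mean was 4.12-fold above the prenephritic mean (2.04 ± 0.31) and the remission mean 3.11-fold above it (1.63 ± 0.36). This was the 10th largest of 5769 upward differences between remission and prenephritic arrays. Remission minus nephritic was −0.41 ± 0.35.

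**Figure D1:**
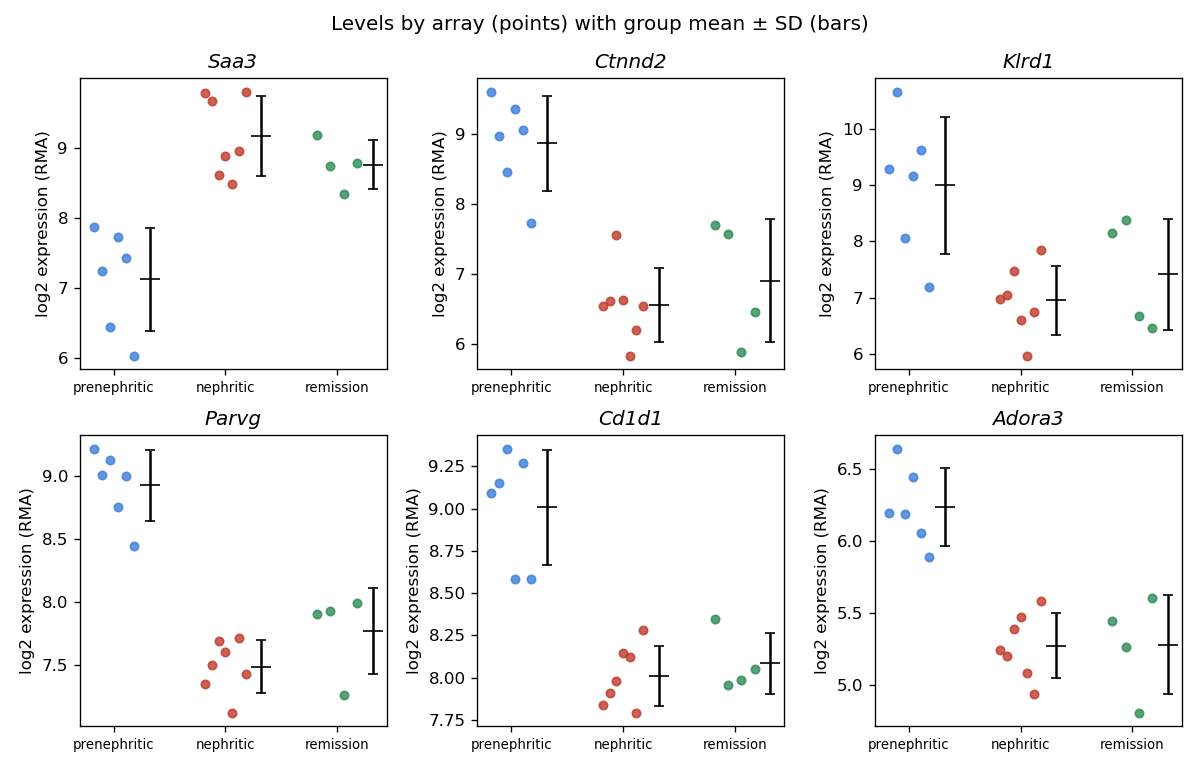
Log2 expression of each of the 6 genes (vertical axes, 1 panel a gene, with axes that do not start at 0) in the prenephritic, nephritic and remission arrays. Points are single arrays and bars are group means ± SD. Saa3 is higher in nephritic and remission arrays and the other 5 genes are lower, with overlap between groups only for Klrd1 when either is set against prenephritic arrays.

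Adora3, the adenosine receptor gene, read 5.89 at the lowest, 6.19 at the median and 6.64 at the highest in prenephritic arrays. In nephritic arrays the lowest was 4.93, the median 5.24 and the highest 5.58. The remission arrays read 5.45, 5.27, 4.81 and 5.61. All nephritic and remission arrays lay below all prenephritic arrays, and remission spanned the whole nephritic range. The nephritic difference was −0.96 ± 0.14 and the remission difference −0.95 ± 0.17, while remission minus nephritic was 0.01 ± 0.16. Adora3 was the dimmest of the 6, with 1 nephritic and 1 remission array below 4.99, the lower quartile of all values, where differences are compressed.

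Cd1d1, the lipid-presenting gene, had prenephritic levels from 8.59 through a median of 9.12 to 9.36. Nephritic levels ran from 7.79 through a median of 7.98 to 8.28. The remission arrays read 8.34, 7.95, 7.98 and 8.05. Here too no array of disease or remission reached the lowest prenephritic array, and only remission replicate 1 lay outside the nephritic range. The differences from prenephritic arrays were −0.999 ± 0.132 in nephritic and −0.92 ± 0.15 in remission arrays, 1.998-fold and 1.90-fold lower.

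Parvg, the integrin adaptor gene, lay between 8.45 and 9.21 in prenephritic arrays (median 9.002). It lay between 7.12 and 7.72 in nephritic arrays (median 7.51). The remission arrays read 7.90, 7.93, 7.26 and 7.99. Remission replicates 1, 2 and 4 were above all nephritic arrays and still below all prenephritic ones, and replicate 3 lay within the nephritic range. The nephritic difference was −1.43 ± 0.14 and the remission difference −1.15 ± 0.16, with remission minus nephritic at 0.28 ± 0.16.

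Ctnnd2, the delta-catenin gene, had the largest decrease of the 6. Prenephritic levels ran from 7.72 to 9.61 with a median of 9.02. Nephritic levels ran from 5.82 to 7.56 with a median of 6.55. The remission arrays read 7.70, 7.57, 5.89 and 6.46, so replicates 1 and 2 lay above every nephritic array. The highest remission array was only 0.03 below the lowest prenephritic one, replicate 6. The nephritic mean was 4.95-fold lower (−2.31 ± 0.35) and the remission mean 3.90-fold lower (−1.96 ± 0.40), the latter being the 2nd largest of 10011 downward differences between remission and prenephritic arrays. Among all genes, 1.93% had every remission array below every prenephritic one, and 1.61% had every nephritic array below every prenephritic one. Adora3, Cd1d1, Parvg and Ctnnd2 did so in both comparisons.

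Klrd1, the CD94 gene, varied most within groups. Prenephritic levels ran from 7.18 to 10.66 with a median of 9.22, and their SD of 1.22 was larger than that of 99.8% of genes. Nephritic levels ran from 5.96 to 7.85 with a median of 6.98. The remission arrays read 8.15, 8.38, 6.67 and 6.47. Prenephritic replicate 6 lay inside the nephritic range, and remission replicates 1 and 2 lay above prenephritic replicates 3 and 6, so the groups overlapped in both comparisons with prenephritic arrays. The nephritic difference was −2.04 ± 0.49 and the remission difference −1.58 ± 0.57.

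**Figure D2:**
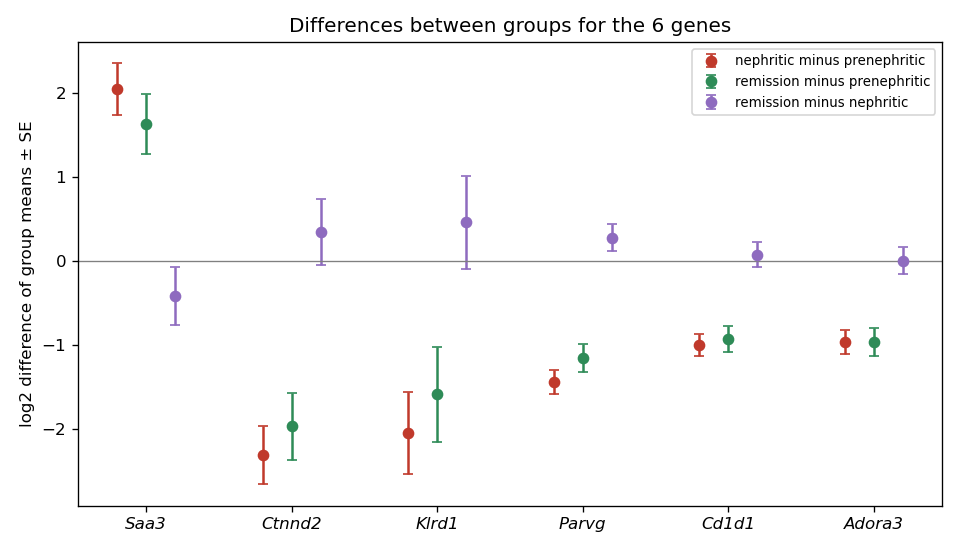
Log2 differences of group means ± SE (vertical axis) for the 6 genes, for nephritic minus prenephritic, remission minus prenephritic and remission minus nephritic. The first 2 differences lie on the same side of 0 for every gene, and remission minus nephritic lies between −0.41 (Saa3) and 0.46 (Klrd1).

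Set against nephritis, the remission difference was 80.0% ± 15.9 (SE) of the nephritic one for Saa3, 85.0% ± 16.1 for Ctnnd2, 77.4% ± 25.2 for Klrd1, 80.4% ± 10.5 for Parvg, 92.5% ± 14.5 for Cd1d1 and 99.3% ± 16.7 for Adora3. Both differences in each ratio share the prenephritic arrays. The genes were picked on the remission difference, which tends to raise these shares, and the SE does not allow for that. As each array was left out in turn, the lowest share was 62.0% for Klrd1 and the highest 111% for Adora3. For Adora3, 1 nephritic and 1 remission array lay below the lower quartile of all values. Differences are compressed there, and its share does not allow for that. The limma fit called all 6 genes in nephritic minus prenephritic arrays, where 12.1% of all genes were called (6.74% as higher and 5.32% as lower), and none in remission minus nephritic arrays, where 13.3% were (3.27% as higher and 10% as lower). For the latter contrast none of the 6 had an unadjusted p below 0.05 either, and all 6 overlapped between the groups, while 1.7% of all genes lay wholly higher and 6.95% wholly lower in remission. Without nephritic replicate 6 and prenephritic replicate 5 together, Klrd1 was not called in nephritic minus prenephritic arrays (−1.88 ± 0.55). These counts share arrays with the contrast that chose the genes and are not independent of it.

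Genes of the same families and pathways were listed by function and tested. Of 165 such genes in 6 lists, 139 were measured. In nephritic minus prenephritic arrays 23 of the 139 passed the limma test as higher and 3 as lower, against 6.74% and 5.32% of all genes. The median difference over the 139 genes was 0.05 against −0.02 over all genes. In remission minus nephritic arrays 4 were higher and 31 lower, against 3.27% and 10% of all genes, with medians of −0.13 and −0.03. In remission minus prenephritic arrays none passed in either direction, with 11 higher and 15 lower at an unadjusted p below 0.05 and a median of −0.05 in the lists and over all genes alike. Of the 23 genes that were higher in nephritis, 19 were also among the 31 that were lower in remission than in nephritis, and both comparisons share the nephritic arrays. Itgam, Klrb1b, Fpr2 and Slamf6 were among the 19. Lymphocyte markers moved the same way. The mean of the 7 measured T cell markers ran from 5.22 to 5.61 in prenephritic, from 5.53 to 6.22 in nephritic and from 5.10 to 5.30 in remission arrays, with 3 higher in nephritis and 5 lower in remission than in nephritis. The mean of the 7 measured B cell and plasma cell markers ran from 6.00 to 7.51, from 7.18 to 8.41 and from 6.72 to 6.79, with 5 higher and then 3 lower. The part of these cells in the related genes' changes was not tested.

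**Figure D3:**
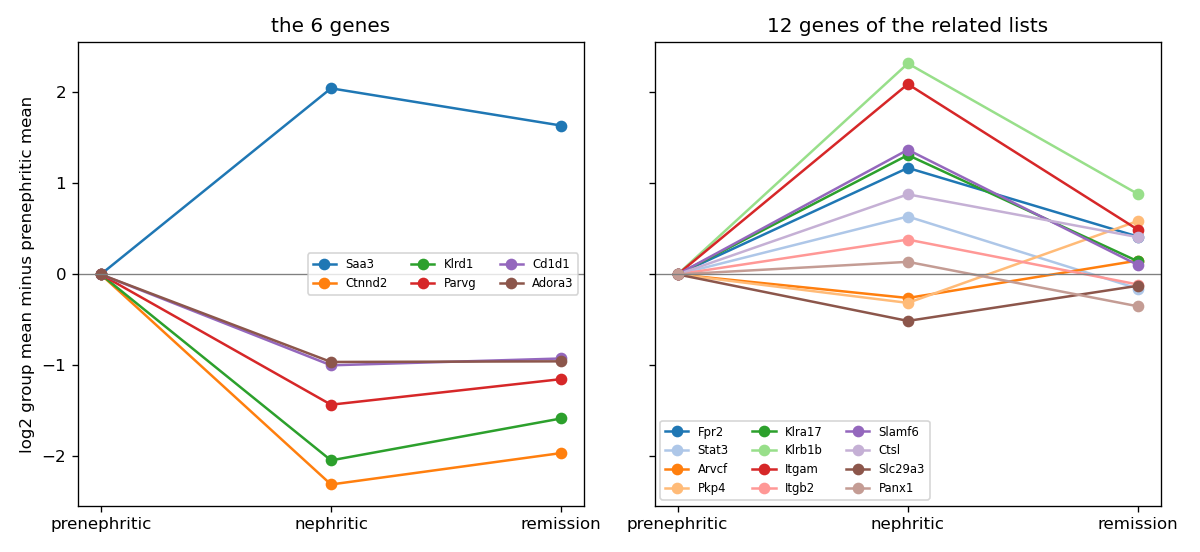
Log2 group means minus the prenephritic mean (vertical axis) for the 6 genes (left) and for 12 genes of the related lists (right), 2 from each list among those with the smallest p in any comparison. The 6 genes were chosen for their remission minus prenephritic differences. No related gene passed in that comparison, so those shown were picked through comparisons with nephritic arrays. Part of the contrast between the panels is therefore set by these choices. The lines join group means and carry no error bars. Itgam, for example, goes from 0 to 2.09 in nephritis and to 0.49 in remission.

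Among 27 measured genes of the acute phase and serum amyloid list, 8 were higher in nephritic than prenephritic arrays and 8 lower in remission than nephritic arrays, with none in the other directions (medians 0.11 and −0.18). Fpr2, a formyl peptide receptor that binds serum amyloid A, rose by 1.17 ± 0.13 (limma, adjusted p = 2.7e-05) and its remission minus nephritic difference was −0.76 ± 0.15 (adjusted p = 0.0030). Lcn2, an iron-scavenging lipocalin gene, went from 5.57 ± 0.68 (SD, n = 6) to 8.56 ± 0.91 (SD, n = 7) and 6.50 ± 0.55 (SD, n = 4). Stat3, which relays interleukin-6 signals, rose by 0.64 ± 0.09, and Scarb1, a scavenger receptor gene, by 0.75 ± 0.13. Saa1, Saa2 and Saa4 had group means between 3.10 and 4.63, below the lower quartile of all values, and adjusted p of at least 0.30 in all 3 comparisons.

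For adenosine the 22 measured genes were enzymes, transporters, a channel and signalling genes, and the other adenosine receptors, Adora1, Adora2a and Adora2b, were not analysed here. Of the 22, 1 was lower in nephritic arrays and none higher, where 5.32% and 6.74% of all genes were. That gene was the lysosomal nucleoside transporter gene Slc29a3 (−0.51 ± 0.14, adjusted p = 0.029), and its call was lost in 6 of the 17 fits that left out an array. Nt5e (CD73, an adenosine-making enzyme) and Entpd1 (CD39) had differences of −0.01 ± 0.30 and −0.12 ± 0.14 in nephritic minus prenephritic arrays. Adenosine deaminase, Ada, stood at 0.31 ± 0.16. None of these 3 passed in any comparison (adjusted p from 0.18 to 0.99). In remission minus nephritic arrays the adenosine kinase gene Adk was higher and Panx1 and Pnp were lower, against 3.27% and 10% of all genes. These calls were lost in 9, 6 and 7 of the 17 fits. The median differences were −0.09 and 0.07.

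In the list of the NK receptor complex 17 of 28 genes were measured, 4 were higher in nephritic arrays and 6 lower in remission than nephritic arrays, with none the other way (medians 0.07 and −0.35). Klrb1b, a gene of the NKR-P1 lectin receptors, rose by 2.32 ± 0.31 (adjusted p = 0.00014) and fell by 1.44 ± 0.34 from nephritis to remission (adjusted p = 0.012), a call lost with the tubule covariate and without remission replicate 1 or 2. The Ly49 receptor genes Klra17 and Klra2 rose by 1.31 ± 0.16 and 0.69 ± 0.12. Klrc1, which encodes the NKG2A partner of CD94, lay at 3.23, 3.21 and 3.15 in the prenephritic, nephritic and remission means, below the lower quartile. Near-identical Klra genes can share probes, so the source of those signals is uncertain.

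The mean of the 9 measured NK markers ran from 4.67 to 5.32 in prenephritic, from 5.03 to 5.47 in nephritic and from 4.59 to 4.81 in remission arrays. None of the 9 passed in nephritic minus prenephritic arrays, and 5 were lower in remission than nephritic arrays. Of these 5, Klrk1 and Klrb1c are also in the NK receptor list. The call of Klrk1 (adjusted p = 0.049) was lost in 14 of the 17 fits that left out an array and that of Il2rb in 8. The defining NK marker Ncr1 had group means of 4.28, 4.15 and 3.90, below the lower quartile. Within groups Klrd1 correlated with the NK marker mean at r = 0.561 over 17 arrays (rho = 0.512, and r = 0.483 without the 2 arrays farthest from the median). Saa3 correlated with it more strongly (r = 0.753, rho = 0.735, and 0.598 without 2 arrays). The neutrophil marker mean came close to the NK one for Klrd1 (r = 0.553, rho = 0.363, and 0.341 without 2 arrays). With the macrophage marker mean Klrd1 ran opposite (r = −0.529, rho = −0.529, and −0.441 without 2 arrays). Among the marker lists, Parvg correlated most with the neutrophil one (r = 0.596, rho = 0.620, and 0.542 without 2 arrays). The mean of the conventional dendritic cell markers moved with Klrd1 within groups. Of its members, Cd209a and Flt3 correlated with Klrd1 within groups at r = 0.848 and 0.858, and single values for the others are not given here. Over the 17 arrays, after group means had been taken out, Klrd1 correlated with the mean of the 7 measured dendritic cell markers at r = 0.824 (rho = 0.708, and r = 0.706 without 2 arrays). For Saa3 this was r = 0.730 (rho = 0.547, and 0.674 without 2 arrays), and for the other 4 genes r lay between 0.187 and 0.508. All values of an array share its RNA sample and its scaling. That mean ran from 6.60 to 8.66 in prenephritic, from 6.85 to 7.80 in nephritic and from 6.29 to 7.44 in remission arrays. With it as a covariate, the Klrd1 difference between remission and prenephritic arrays went from −1.58 ± 0.57 to −0.42 ± 0.39. Its nephritic minus prenephritic difference went from −2.04 ± 0.49 to −1.38 ± 0.31 and was still called, and its remission minus nephritic difference from 0.46 ± 0.55 to 0.96 ± 0.33. The remission minus prenephritic difference of Saa3 went from 1.63 ± 0.36 to 2.28 ± 0.30, and those of the other 4 genes moved by less than their within-group SD. The list itself was mixed, with Flt3 (−1.63 ± 0.50) and Cd209a (−3.73 ± 0.65) lower and Xcr1 (2.37 ± 0.43) higher in nephritic than prenephritic arrays. The Flt3 call was lost in 11 of the 17 fits that left out an array. The covariate was chosen after seeing the data, and the part of these cell types in the Klrd1 differences was not tested.

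**Figure D4:**
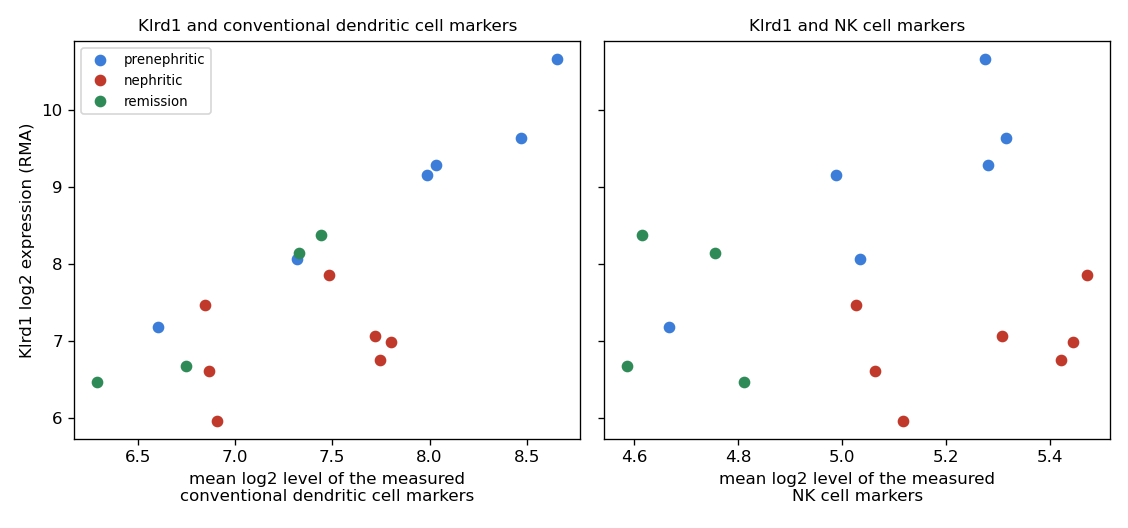
Klrd1 log2 expression (vertical axis) against the mean log2 level of 7 conventional dendritic cell markers (left) and 9 NK cell markers (right), 1 point per array, coloured by group. Nephritic arrays sit low on Klrd1, at 5.96 to 7.85, at dendritic cell marker means of 6.85 to 7.80 and NK cell marker means of 5.03 to 5.47.

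For CD1d lipid presentation, 6 of 22 measured genes were higher in nephritic arrays and 7 lower in remission than nephritic arrays, with none in the other direction (medians 0.11 and −0.17). Slamf6, a receptor that takes part in NKT cell selection, rose by 1.37 ± 0.20 (adjusted p = 0.00026). The lysosomal galactosidase gene Gla rose by 0.89 ± 0.18, and Ctsl, a lysosomal protease gene, by 0.88 ± 0.15. B2m, the chain that pairs with CD1d, stood at 13.81 ± 0.03 (SD, n = 6), 13.78 ± 0.04 (SD, n = 7) and 13.81 ± 0.04 (SD, n = 4) and passed in no comparison (adjusted p from 0.715 to 0.995). Mttp, which loads lipid onto CD1d, did not pass either (−0.33 ± 0.20 in nephritic minus prenephritic arrays, adjusted p = 0.34).

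In the list of parvins and integrin adhesion, 5 of 28 genes were higher and 1 lower in nephritic arrays, and 1 was higher and 8 lower in remission than nephritic arrays (medians 0.15 and −0.22). The gene lower in nephritic arrays was Itgb7 (−0.93 ± 0.27, adjusted p = 0.035), a call lost in 9 of the 17 fits that left out an array. Its remission minus prenephritic difference was −1.26 ± 0.32 (adjusted p = 0.14), against −1.15 ± 0.16 for Parvg. Itgam, the CD11b gene, rose by 2.09 ± 0.17 and fell by 1.60 ± 0.19 from nephritis to remission. Itgb2, its beta chain gene, rose by 0.38 ± 0.08, and Rsu1, a partner of the same kinase complex, by 0.36 ± 0.08. The paralogs Parva and Parvb had nephritic minus prenephritic differences of 0.12 ± 0.34 and −0.10 ± 0.11, and the kinase gene Ilk −0.06 ± 0.07, with adjusted p of 0.61 or more. Lims1, which encodes the adaptor PINCH-1, fell by 0.46 ± 0.11 from nephritis to remission (adjusted p = 0.013), a call lost in 1 of the 17 fits that left out an array.

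Of 23 measured catenin and cadherin genes, 1 was lower in nephritic arrays and 2 (Arvcf and Pkp4, calls lost in 3 and 4 of the 17 fits) higher in remission than nephritic arrays, with none the other way (medians 0.01 and 0.05). Of all genes 5.32% and 3.27% were called in those directions. The plakophilin gene Pkp3 was lower in nephritic arrays (−0.69 ± 0.19, adjusted p = 0.028), a call lost in 7 of the 17 fits that left out an array. Its remission mean was 6.22 ± 0.35 (SD, n = 4) against 6.95 ± 0.43 (SD, n = 6) in prenephritic arrays (adjusted p = 0.17). Ctnnd1 (p120 catenin) and Ctnnb1 (beta-catenin) passed in no comparison, with differences of at most 0.20 in size. Of 6 measured neuron and glia markers, 5 lay below the lower quartile in every group.

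Variation inside the groups was not used to choose the genes. After group means had been taken out, all 15 pairs had correlations above 0 over 17 arrays, between 0.12 (Saa3 with Cd1d1) and 0.76 (Ctnnd2 with Klrd1), with a median of 0.47. Of all pairs of the 15780 genes, 53.4% had a correlation above 0. The median over the 15 pairs was 0.29 by rank, and by Pearson correlation 0.31 without prenephritic replicate 6. Saa3 was thus higher where Klrd1 and Ctnnd2 were higher within a group (r = 0.64 and 0.58), although it differed between groups in the opposite direction. Without the 2 arrays farthest from the median, 13 of the 15 pairs stayed above 0, while Saa3 with Cd1d1 turned to −0.195 and Ctnnd2 with Cd1d1 to −0.125. There Ctnnd2 with Klrd1 stood at 0.65, Ctnnd2 with Parvg fell from 0.66 to 0.35 and Saa3 with Parvg from 0.34 to 0.01. Prenephritic replicate 6 was the lowest prenephritic array for Saa3, Ctnnd2, Klrd1, Parvg and Adora3, and remission replicate 3 the lowest remission array for Saa3, Ctnnd2, Parvg and Adora3. Prenephritic replicate 6 also had the lowest dendritic cell and the highest tubule marker mean of its group, 6.60 and 10.86, whose part in these deviations was not tested.

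**Figure D5:**
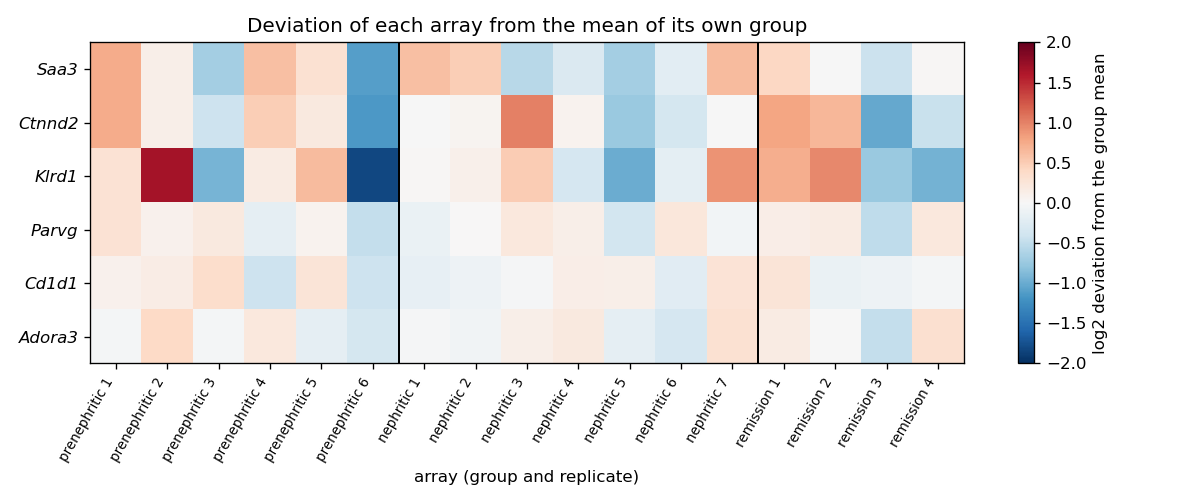
Log2 deviation of each array (columns, by group and replicate) from the mean of its own group for the 6 genes (rows), blue for lower and red for higher. Prenephritic replicate 6 is below its group mean for all 6 genes, and Klrd1 shows the widest deviations.

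The genes most like each of the 6 were ranked by Pearson correlation over the 17 arrays, among named genes whose symbol is more than an identifier. These correlations include the group differences that chose the 6 genes. Ctnnd2 was closest to Il18rap (r = 0.977), a chain of the interleukin-18 receptor, then Tnfsf8 (0.949), the CD30 ligand gene, and Parvg (0.925). The Il18rap means were 6.65 ± 0.52 (SD, n = 6), 5.12 ± 0.45 (SD, n = 7) and 5.41 ± 0.49 (SD, n = 4) in prenephritic, nephritic and remission arrays, and its correlation with Ctnnd2 inside groups was 0.921. Parvg was closest to Tnfsf8 (0.935), Ctnnd2 and Fndc4 (0.921). Klrd1 was closest to Tnfrsf18, the GITR gene (0.936), Cd209a (0.925) and Flt3 (0.908), the last 2 being in the dendritic cell list. Cd1d1 was closest to Atp10d (0.906), Parvg (0.900) and Tbpl1 (0.899), and Adora3 to Pkn3 (0.910), Rnase6 (0.910) and Fhod1 (0.906). Saa3 was closest to the immunoglobulin gene Igkv6-15 (0.910), Adam23 (0.889) and Maob (0.849), the gene of a monoamine oxidase. Inside groups the correlations of these closest genes ran from 0.41 (Cd1d1 with Parvg) to 0.93 (Klrd1 with Tnfrsf18). There Ctnnd2 with Parvg stood at 0.66, and Cd1d1 with Atp10d and Tbpl1 at 0.60 and 0.52. Igkv6-15 differed from Saa3 in remission, where its mean was 6.70 ± 1.42 (SD, n = 4) between 4.57 ± 1.08 (SD, n = 6) in prenephritic and 8.70 ± 1.42 (SD, n = 7) in nephritic arrays. The lowest correlations over the 17 arrays were those of Sypl with Adora3 (−0.913), Slc30a1 with Parvg (−0.915), Plekhb2 with Ctnnd2 (−0.905), Irak1bp1 with Cd1d1 (−0.901), Apoe with Klrd1 (−0.895) and Cyp11b1 with Saa3 (−0.870).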

How the data were processed

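Total RNA of the sorted cells was hybridised to Affymetrix arrays, 1 per sample, per the labels' protocols. Per the submitters' processing notes RMA was used, and the deposited numbers are on a log2 scale. The sources used here give no version, probe definition or build. Of 16539 probe sets, 15780 name 1 gene, 695 lack a symbol and 64 are controls. Depth does not apply to arrays, and the number of arrays limits the precision. limma 3.58.1 in R 4.3.3 fitted a mean per group to 17 arrays (14 residual degrees of freedom). Tests were two-sided, with Benjamini-Hochberg adjustment over 15780 genes and a threshold of 0.05, and no filter on level. The fit was tested on simulated data. The standard error of each share came from the delta method. Named genes were the 6 genes, fixed close relatives, up to 4 called genes a list by smallest p, the 3 most and 1 least correlated genes, and cell type markers. Itgb7 was added as the only gene of its list that was lower in nephritis. The genes and lists were chosen with earlier results of these data known, and the motifs after the promoter sequences had been read. Background correction and scan date could not be varied, since only summarised values were used. Alternatives changed the filter, normalization, centring, variance prior, array weights, samples fitted, block, covariates and arrays.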

Additional observations from a re-analysis of the deposited data

Results flagged for a closer look

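Parvg in remission replicate 3 was 7.26, apart from the other 3 remission arrays. Its gap to the nearest of them was 0.883 of the group's range, above Dixon's critical value of 0.829 for 4 samples. It was the 1 group to stand out of 18 groups examined (6 genes in 3 groups), and chance alone gives about 1 in 20. Without this array the remission minus prenephritic difference of Parvg was −0.98.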

How the results depend on the processing

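Apart from 2 values, the 18 differences of the 6 genes moved by less than the within-group SD under every alternative that was run for them. With the dendritic cell marker mean as a covariate, chosen after seeing the data, remission minus prenephritic was 2.28 for Saa3 and −0.42 for Klrd1. For genes lower in nephritic than prenephritic arrays, 840 in all, the count was 477 when both prenephritic replicate 5 and nephritic replicate 6 were dropped (chosen after seeing the data), 1576 with the tubule covariate, 537 once array medians were taken off and from 569 to 1009 without 1 array. Related genes lower in that comparison numbered 3, and 6 with quantile normalization repeated, 5 with array weights, 6 with the tubule covariate, 0 without those 2 arrays, and from 0 to 4 without 1 array. In remission minus nephritic arrays, 516 genes were higher and 1584 lower. The higher count was 1239 with array weights, 1064 with the replicate block and from 182 (without remission replicate 2) to 981 (without remission replicate 4) without 1 array, and 195 without remission replicate 1 and 332 without remission replicate 3. The lower count was 2385 with array weights, 852 with the tubule covariate and from 839 to 1940 without 1 array. Related genes higher there were 8 with array weights, 7 with the replicate block and from 0 to 5 without 1 array, against 4. Those lower were 16 with the tubule covariate and from 13 to 36 without 1 array, against 31.

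In remission minus prenephritic arrays, 0 genes were higher and 1 lower by limma. The higher count was 2 with quantile normalization repeated, 69 with array weights, 234 with the replicate block and from 0 to 28 without 1 array. The lower count was 3 with quantile normalization repeated, 3 with array medians subtracted, 3 with another variance prior, 289 with array weights, 0 with only the groups compared, 244 with the replicate block, 0 with the tubule covariate, 0 without those 2 arrays, and from 0 to 171 without 1 array. The highest counts came without prenephritic replicate 6. Related genes numbered 1 higher and 3 lower with the replicate block, 2 lower with array weights, and from 0 to 3 lower without 1 array, against 0. Of the 6 genes, 1 was called, and 5 with array weights, 0 with only the groups compared, 5 with the replicate block, 0 with the tubule covariate, 0 without those 2 arrays and from 0 to 5 without 1 array. The cause of these changes was not tested.

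Samples of different groups share only a replicate number. Deviations of the 14 same-numbered pairs correlated between −0.26 and 0.80 (median 0.12). Those of the 80 differently numbered pairs correlated between −0.73 and 0.79 (median 0.005). The labels name nothing that the replicate block pairs, and a shared effect by replicate number was not tested. The median correlation inside groups ran from 0.31 (without prenephritic replicate 6) to 0.51 without 1 array. Dim genes such as Adora3 have compressed differences.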
